A study of Mus musculus with 16 samples.

Results

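The 10 genes described here encode the enzymes that remove superoxide and peroxides in islet cells: the glutathione peroxidases Gpx1, Gpx2, Gpx3 and Gpx4, the superoxide dismutases Sod1 and Sod2, catalase (Cat), and the peroxiredoxins Prdx1, Prdx2 and Prdx4. They were taken by symbol from the 52636 genes of the count table, and all 10 passed the filter on low counts that left 18587 genes for testing. Islets of Langerhans from male mice aged 12 weeks were cultured for 10 days in medium with human serum under 4 conditions: no addition (control), IL-1β at 50 pg/ml, sodium butyrate at 0.2 mM, or both agents together. Each condition had 4 libraries, each from 500 islets pooled from several mice, and the 4 replicates stand for independent experiments rather than single animals. The strain is C57BL/6JRj in the sample labels and C57BL/6NRj in the published methods. The members were chosen by their measured counts in these libraries: the study had singled out these enzyme families for lower expression with butyrate, and Gpx2 also for its change with IL-1β and with both agents. The comparison of butyrate alone with control is therefore given as a description without a test for all 10 genes, and Gpx2 is described without a test in every comparison. Both agents against butyrate is likewise a description, since it takes as its baseline the butyrate libraries in which the members were chosen as low.

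Superoxide dismutases turn superoxide into hydrogen peroxide, Sod1 with copper and zinc mainly in the cytosol and Sod2 with manganese in mitochondria. Hydrogen peroxide is then removed by catalase in peroxisomes, by glutathione peroxidases at the expense of glutathione, and by peroxiredoxins at the expense of thioredoxin. Gpx1 to Gpx4 are selenoproteins in the mouse, and pancreatic beta cells are known for low levels of catalase and of glutathione peroxidase activity.

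The promoter windows of the members are shown first for the genes on which the results turn: Gpx2, which had the largest fall with butyrate, Sod2 and Sod1, the dismutases, whose ratio differed between conditions, and Prdx1, which held matches to all 5 motifs searched. Each window runs from 250 bases before to 50 bases after the start of the gene, 5′ to 3′ on the strand of the gene, as given by RefSeq for GRCm38.p6. All 10 members were matched to this table by symbol, with 13 windows in all. Capitals mark matches on either strand to the antioxidant response element core TGACNNNGC, the AP-1 site TGANTCA, the GC box GGGCGG, the TATA box TATAAA and an NF-κB decamer.
Gpx2, chr12:76795505-76795804, minus strand: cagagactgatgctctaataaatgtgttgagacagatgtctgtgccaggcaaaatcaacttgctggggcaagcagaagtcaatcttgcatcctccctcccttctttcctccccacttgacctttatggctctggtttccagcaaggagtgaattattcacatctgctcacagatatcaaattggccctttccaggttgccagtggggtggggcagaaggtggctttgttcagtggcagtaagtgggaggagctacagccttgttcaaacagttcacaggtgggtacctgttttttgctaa
Sod2, chr17:13007589-13007888, plus strand: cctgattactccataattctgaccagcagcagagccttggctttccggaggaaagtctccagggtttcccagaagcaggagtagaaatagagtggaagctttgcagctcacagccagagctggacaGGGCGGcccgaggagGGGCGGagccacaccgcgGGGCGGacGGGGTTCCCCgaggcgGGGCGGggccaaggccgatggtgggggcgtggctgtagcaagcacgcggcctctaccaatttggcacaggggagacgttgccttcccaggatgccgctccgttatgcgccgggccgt
Sod1, chr16:90220512-90220811, plus strand: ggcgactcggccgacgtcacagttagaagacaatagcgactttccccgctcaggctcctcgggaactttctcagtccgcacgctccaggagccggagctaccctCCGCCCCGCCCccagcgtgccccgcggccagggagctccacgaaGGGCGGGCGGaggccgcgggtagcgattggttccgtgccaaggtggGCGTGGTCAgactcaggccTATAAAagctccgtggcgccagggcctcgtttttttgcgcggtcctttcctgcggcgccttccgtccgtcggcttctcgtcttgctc
Prdx1, chr4:116685349-116685648, plus strand: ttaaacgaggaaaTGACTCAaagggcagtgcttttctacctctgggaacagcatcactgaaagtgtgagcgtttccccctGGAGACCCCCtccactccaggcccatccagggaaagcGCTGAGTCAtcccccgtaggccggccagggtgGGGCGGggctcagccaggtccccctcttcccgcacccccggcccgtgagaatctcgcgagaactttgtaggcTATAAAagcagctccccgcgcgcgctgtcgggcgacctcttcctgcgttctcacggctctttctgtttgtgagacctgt

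The Gpx2 window held no match to any of the 5 motifs, and it was the only member without a GC box, a motif present in 35.7% of the 32851 promoter windows of the table. The NF-κB decamer was found in Sod2 and Prdx1 (4.51% of all windows). In Sod2 it was 1 site that matched on both strands. The antioxidant response element core was found in Sod1 and Prdx1 (12.4% of all windows), and in Prdx1 it overlapped one of the matches to the AP-1 site (7.81% of all windows). The TATA box was found in the same pair of genes (13.6% of all windows). A match is a string of letters in the window and does not show that a factor bound there.

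The levels of the 10 genes are given per kilobase of merged exon, as CPM (the reads of a gene scaled to the TMM-adjusted total of its library) divided by exon length, so that genes can be compared with each other. In control islets Gpx3, the secreted glutathione peroxidase, stood highest at 137 ± 4.1 CPM per kilobase (SD, n = 4). Sod1 followed at 42.7, Prdx1 at 40.7, Gpx1 at 36.9, Prdx2 at 30.2, Gpx4 at 28.6, Gpx2 at 18.9, Prdx4 at 8.48, Sod2 at 7.23 and Cat at 3.23 CPM per kilobase. The libraries of neighbours in this order overlapped only between Sod1 and Prdx1 and between Prdx2 and Gpx4. Catalase thus had the lowest level per kilobase among the members in control islets, as it did with IL-1β and, with libraries that overlapped those of Gpx2, with both agents.
With butyrate alone the lowest place went to Gpx2 at 2.07 CPM per kilobase, whose libraries overlapped those of Cat at 2.24. By exon length Gpx3 stayed highest in all 4 conditions. When levels were divided by coding length instead, Gpx3, Sod1, Prdx1 and Cat kept their places in control and the other 6 changed place, with Sod2 moving up most. In the other conditions coding length put Sod1 above Gpx3, at 376 and 320 CPM per kilobase with IL-1β, 277 and 264 with both agents, and 275 and 264 with butyrate. With butyrate it left Cat lowest at 3.71, below Gpx2 at 11.7 CPM per kilobase of coding sequence.

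**Figure D1:**
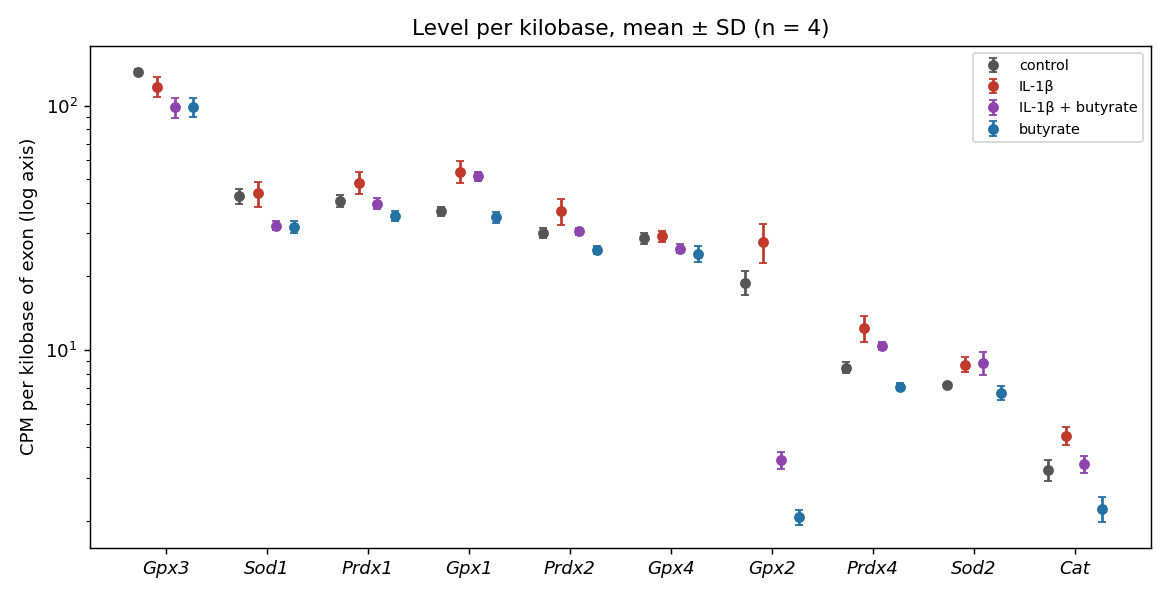
Level of each antioxidant enzyme gene in CPM per kilobase of merged exon (log axis), as mean ± SD of the 4 libraries in each of the 4 conditions, ordered by the control level. Gpx3 is highest in every condition, and Gpx2 moves from 18.9 in control to 2.07 with butyrate.

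The sequencing depth behind these values was 18635943 to 25955943 counted reads per library, so the least abundant member, Cat, still had 110 to 338 reads in each library. The beta cell markers (Ins1, Ins2 and 6 others) were all detected, with a summed level of 214400 to 237200 CPM in control, 137800 to 179400 with IL-1β, 138100 to 170300 with both agents and 222800 to 262300 with butyrate. The 9 macrophage markers summed to 128.9 to 142.7 CPM in control, 182.4 to 226.9 with IL-1β, 98.8 to 134.2 with both agents and 85.08 to 106.2 with butyrate. With IL-1β 8 of these 9 rose and 1, C1qa, fell, against 11.2% and 6.59% of all genes. C1qa made up most of the control sum, at 99.6 to 124 CPM. The other 8 summed to 18.3 to 29.4 CPM in control, 91.4 to 159 with IL-1β, 40.6 to 89.2 with both agents and 14.3 to 23.9 with butyrate. With both agents against control 6 of the 9 were called higher and 1 lower, against 15.8% and 14.8% of all genes. The median log2 fold change over the 9 was 1.25, while the sums over all 9 overlapped between these conditions. The 7 duct markers summed to 452.8 to 484.7 CPM in control, 634.2 to 739.1 with IL-1β, 636.4 to 935.2 with both agents and 427.9 to 484.1 with butyrate. Of the 6 duct markers tested, 4 were called higher with IL-1β against control, where 11.2% of all genes were. With both agents against control 2 of the 6 were called higher, where 15.8% of all genes were. Their log2 fold changes there had a median of 0.19 and a maximum of 4.87. Macrophage and duct marker sums were thus higher with IL-1β than in control, and macrophage marker sums were lower with both agents than with IL-1β, with and without C1qa, in the same libraries as the enzyme differences below, and their part in those differences was not tested. Alpha, delta and PP markers summed to at least 18680, 1696 and 1824 CPM in every library, whereas those of acinar, endothelial, fibroblast, T and Schwann cells reached at most 30.43, 17.38, 22.69, 3.419 and 15.52 CPM, with the acinar amylase gene Amy2a5 at 0 or 1 read.

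IL-1β raised most of the antioxidant enzymes among the members. Compared with control islets, 6 of the 9 members tested passed an adjusted p of 0.01 (edgeR quasi-likelihood test, adjusted over all 18587 genes), each with a higher level, and the other 3 did not pass. Over all genes tested, 11.2% were called higher and 6.59% lower in this comparison. As a description, the median log2 fold change was 0.28 over the 10 members, Gpx2 included, and -0.03 over all genes. Since these are whole islets, a higher share of a cell type and more transcript per cell cannot be told apart.

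Among the glutathione peroxidases, Gpx1, the ubiquitous intracellular enzyme (chr9:108338903-108340343), was at 50.5, 53.7, 52.8 and 55.9 CPM in the control libraries and at 73.3, 88.5, 77.4 and 70.8 CPM with IL-1β. Every IL-1β library lay above every control library. The log2 fold change of Gpx1 was 0.54 ± 0.06 (SE), a 45.3% rise (edgeR adjusted p = 3.52e-08). Gpx2 (chr12:76792333-76795554), best known from the epithelium of the gut, was at 63.5, 68.9, 53.4 and 57.7 CPM in control and at 91.9, 111, 78.9 and 75.3 CPM with IL-1β. These groups did not overlap either, and the log2 difference was 0.55 ± 0.11 (SE). Gpx3 was at 241 to 259 CPM in control and 197 to 245 CPM with IL-1β. Its log2 difference of -0.20 ± 0.07 (SE) did not pass (edgeR adjusted p = 0.0349). It passed with the replicate number as a block (adjusted p = 0.00557) and without IL-1β replicate 1 (adjusted p = 0.00584). Without IL-1β replicate 3 the edgeR adjusted p of Gpx3 was 0.149. Gpx4, which reduces lipid hydroperoxides in membranes, was at 47.1 to 52.4 CPM in control and 47.7 to 53.7 CPM with IL-1β, and its difference did not pass (log2 0.03, 95% interval -0.08 to 0.14, edgeR adjusted p = 0.739).

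Of the dismutases, Sod2 rose with IL-1β and Sod1 did not pass, and the difference between their changes was not tested. The mitochondrial Sod2 (chr17:13006846-13040063) was at 71.2, 73.6, 71.5 and 73.0 CPM in control and at 91.3, 92.5, 86.6 and 79.0 CPM with IL-1β, with no overlap. Its log2 fold change was 0.27 ± 0.06 (SE, edgeR adjusted p = 0.002). The cytosolic Sod1 (chr16:90220754-90226329) was at 170, 185, 163 and 159 CPM in control and at 172, 203, 162 and 158 CPM with IL-1β, so the groups overlapped over nearly their whole range. Its difference did not pass (log2 0.04, 95% interval -0.10 to 0.17, edgeR adjusted p = 0.741). The Sod2 call rested partly on 1 library, since without IL-1β replicate 2 its adjusted p was 0.0103.

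Catalase and the peroxiredoxins among the members, peroxide-removing enzymes of peroxisome, cytosol and endoplasmic reticulum, all rose with IL-1β. Prdx6, a peroxiredoxin outside the members, fell. Cat (chr2:103453849-103485160) was at 7.98, 9.09, 7.45 and 9.25 CPM in control and at 10.2, 11.8, 12.5 and 12.2 CPM with IL-1β (log2 fold change 0.47 ± 0.09 SE, edgeR adjusted p = 0.000379). Prdx4, the peroxiredoxin of the endoplasmic reticulum (chrX:155323918-155340754), was at 16.4, 18.2, 18.6 and 18.2 CPM in control and at 23.3, 30.2, 24.5 and 25.4 CPM with IL-1β. Neither gene had an IL-1β library at or below a control library, and the log2 fold change of Prdx4 was 0.53 ± 0.07 (SE, edgeR adjusted p = 7.69e-07). Of the cytosolic peroxiredoxins, Prdx2 (chr8:84969587-84974834) rose from 86.3 to 94.9 CPM in control to 98.1 to 132 CPM with IL-1β (log2 0.29 ± 0.06 SE, edgeR adjusted p = 0.000619). Prdx1 (chr4:116685544-116700822) was at 118 to 135 CPM in control and 131 to 167 CPM with IL-1β, which overlap (log2 0.25 ± 0.06 SE, edgeR adjusted p = 0.00269). The Prdx1 call was lost without control replicate 3 (adjusted p = 0.0128), without control replicate 4 (0.0132) and without IL-1β replicate 2 (0.0161). The exons of Prdx2 share 173 bases with Junb and 177 with Rnaseh2a on the opposite strand, 5.7% and 5.8% of its exon length, and whether reads were counted by strand is not given in the sources used here.

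IL-1β replicate 2 held the highest value of its condition for 8 of the 10 members, the exceptions being Gpx3 and Cat. Of the 9 members tested, 5 had every IL-1β library above every control library, where 14.1% of all genes tested were of that kind. Without IL-1β replicate 2, 4 of the 9 were called.

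**Figure D2:**
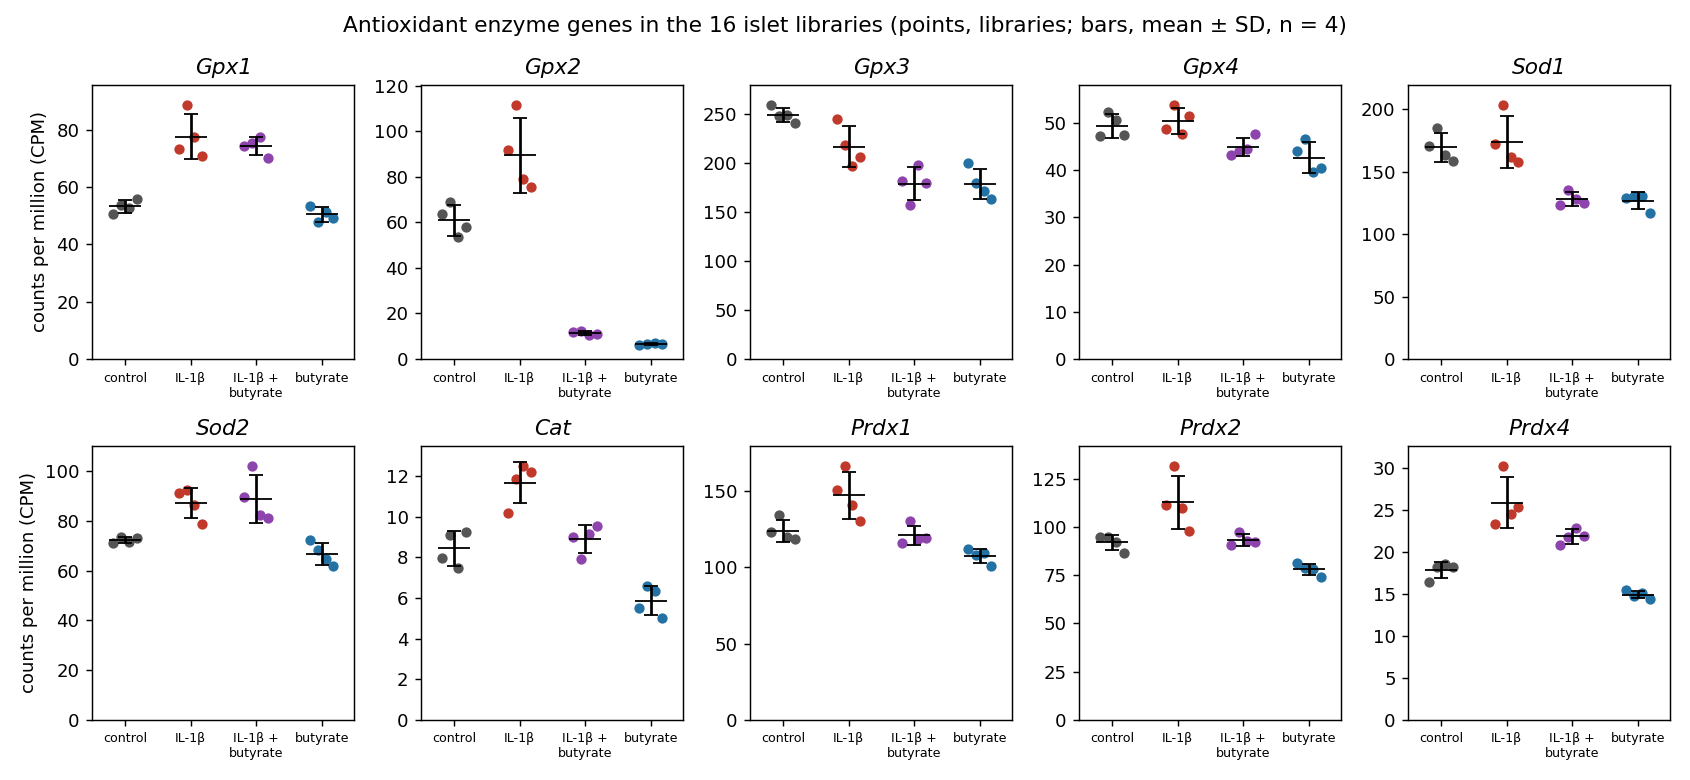
CPM of the 10 members in the 16 libraries by condition (points, libraries; bars, mean ± SD, n = 4; each panel has its own axis from 0). Gpx1, Sod2 and Prdx4 stay above control when butyrate is added to IL-1β (means 74.3, 88.8 and 21.8 CPM). Prdx4 is then lower than with IL-1β alone (mean 25.8 CPM). Gpx2 and Sod1 are low in both conditions with butyrate.

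Butyrate alone went with lower levels of most members. The largest difference was in Gpx2, at 6.08, 6.80, 7.21 and 6.62 CPM with butyrate against 53.4 to 68.9 CPM in control, which is 9.12-fold lower (log2 -3.19 ± 0.14 SE). Only 5 of the 18587 genes tested had a lower log2 fold change in this comparison. The next differences were much smaller: Cat -0.53 ± 0.10, Gpx3 -0.48 ± 0.07, Sod1 -0.42 ± 0.07, Prdx4 -0.26 ± 0.07, Prdx2 -0.24 ± 0.06, Gpx4 -0.21 ± 0.06 and Prdx1 -0.20 ± 0.06 on the log2 scale (SE). Sod2 at -0.11 ± 0.06 and Gpx1 at -0.08 ± 0.06 differed least. Without Gpx2, 6 of the 9 other members were lower by the call rule used for all genes, against 11.4% of all genes, and nothing is read from that count because the study had named these families as lower with butyrate. The catalase libraries with butyrate, at 5.52, 6.57, 6.32 and 5.03 CPM, all lay below the lowest control library.

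In islets also exposed to IL-1β, 6 of the 9 members tested fell when butyrate was added (adjusted p under 0.01), and Gpx1, Gpx4 and Sod2 did not pass. Over all genes tested 11.1% were called lower and 8.41% higher. As a description, the median log2 fold change was -0.27 over the 10 members, Gpx2 included, and 0.01 over all genes. This comparison uses none of the libraries of butyrate alone and control, but the sources used here do not say whether it entered the choice of the families as lower with butyrate. It shares the IL-1β libraries with the comparison of IL-1β and control.

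Gpx2 was at 11.8, 12.5, 10.6 and 10.8 CPM with both agents, 7.80-fold below the IL-1β libraries (log2 -2.96 ± 0.12 SE). Only 5 of the 18587 genes had a lower log2 fold change here as well. Sod1 was at 123, 136, 128 and 125 CPM with both agents, below each of the 4 IL-1β libraries (log2 -0.44 ± 0.07 SE, edgeR adjusted p = 1.39e-05). Cat was at 9.01, 7.89, 9.15 and 9.53 CPM, also without overlap (log2 -0.40 ± 0.09 SE, edgeR adjusted p = 0.00189).
The peroxiredoxins among the members fell to a like extent. Prdx1 fell by 0.28 ± 0.06 (adjusted p = 0.000745), Prdx2 by 0.27 ± 0.06 (0.00128) and Prdx4 by 0.24 ± 0.07 (0.00674) on the log2 scale (SE, edgeR). Gpx3 was at 182, 157, 198 and 179 CPM with both agents (log2 -0.28 ± 0.07 SE, edgeR adjusted p = 0.00443).
Gpx4 was at 43.2 to 47.6 CPM, below every IL-1β library. Its log2 difference of -0.17 ± 0.06 did not pass (edgeR adjusted p = 0.0194). It passed with the replicate number as a block (adjusted p = 0.00406), without IL-1β replicate 3 (0.00841) and without replicate 4 of both agents (0.008). With upper-quartile scaling the edgeR adjusted p of Gpx4 was 0.0944. Gpx1 stayed at 69.9 to 77.4 CPM (log2 -0.06, 95% interval -0.18 to 0.06, edgeR adjusted p = 0.472) and Sod2 at 81.1 to 102 CPM (log2 0.03, 95% interval -0.10 to 0.16, edgeR adjusted p = 0.794), and neither difference passed. The Prdx4 call was lost without IL-1β replicate 2 (adjusted p = 0.0456) and without replicate 1 (0.0183), 2 (0.011) or 4 (0.0108) of both agents. That of Gpx3 was lost without IL-1β replicate 1 (0.0115), IL-1β replicate 2 (0.0171) and replicate 2 of both agents (0.0106).

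**Figure D3:**
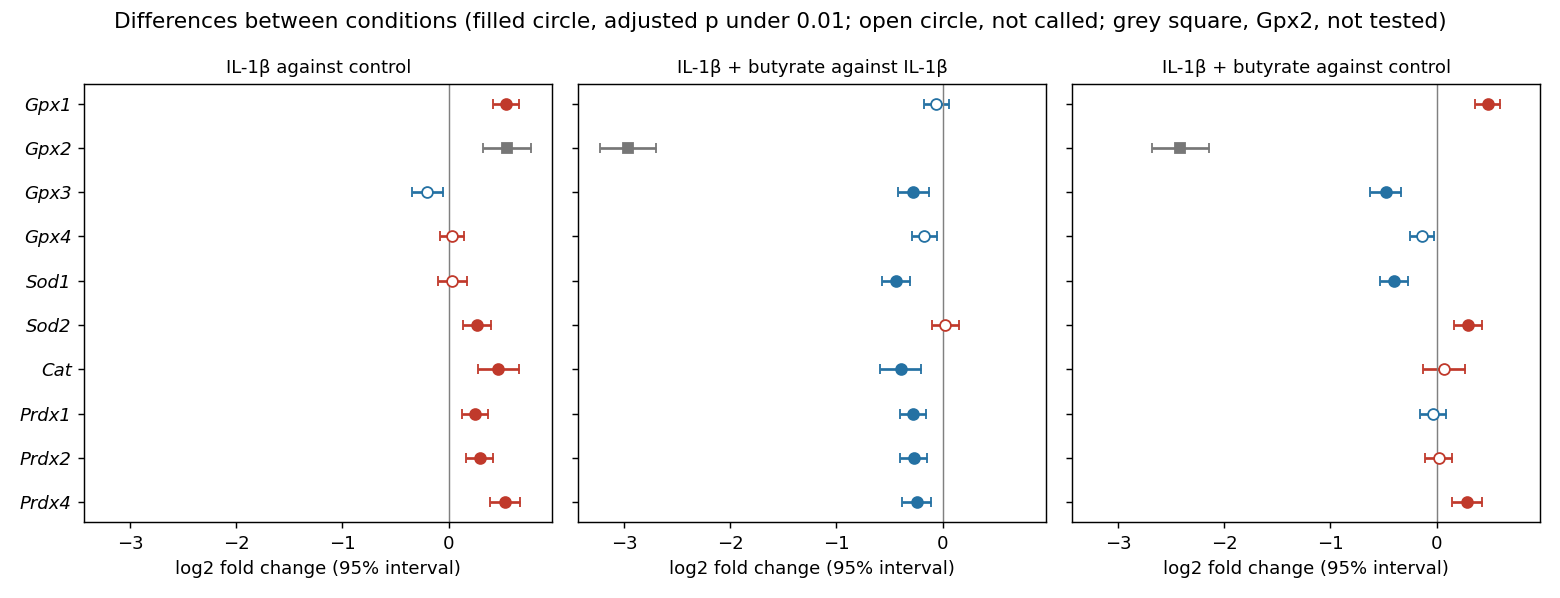
Log2 fold change of each member with its 95% interval in 3 comparisons that share libraries (filled circles, adjusted p under 0.01; open circles, not called; red, higher; blue, lower; grey squares, Gpx2, described without a test). With both agents against control, the intervals of Gpx1, Sod2 and Prdx4 lie above 0, and those of Gpx2, Gpx3 and Sod1 lie below. The interval of Gpx4, which is not called, also lies below 0.

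With both agents together the enzymes ended in 3 groups relative to untreated islets. Gpx1 (log2 0.48 ± 0.06 SE, edgeR adjusted p = 1.41e-07), Sod2 (0.30 ± 0.06, adjusted p = 0.000451) and Prdx4 (0.29 ± 0.07, adjusted p = 0.00127) were higher than in control. Gpx3 (-0.48 ± 0.07, edgeR adjusted p = 7.87e-06) and Sod1 (-0.40 ± 0.07, edgeR adjusted p = 1.88e-05) were lower, as was Gpx2, which was 5.32-fold lower (log2 -2.41 ± 0.13 SE). Cat, Prdx1, Prdx2 and Gpx4 did not pass. The 95% intervals of their log2 differences were -0.13 to 0.27 for Cat, -0.16 to 0.09 for Prdx1, -0.11 to 0.15 for Prdx2 and -0.26 to -0.03 for Gpx4. Over all genes tested, 15.8% were called higher and 14.8% lower in this comparison. Its control libraries are those against which the families had been named as lower with butyrate. The lower calls of Gpx3 and Sod1 are therefore not independent of the choice of members, and nothing further is read from them. The 5 calls among the 9 members tested held when any 1 of the 16 libraries was left out, which does not remove this dependence.

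Between butyrate alone and both agents together, the log2 differences of Gpx2 (0.78 ± 0.16 SE), Cat (0.60 ± 0.10), Gpx1 (0.56 ± 0.06), Prdx4 (0.55 ± 0.07), Sod2 (0.41 ± 0.06), Prdx2 (0.26 ± 0.06) and Prdx1 (0.17 ± 0.06) were above 0. Those of Gpx4 (0.07 ± 0.06), Sod1 (0.01 ± 0.07) and Gpx3 (0.00 ± 0.07) were nearest to 0. By the call rule used for all genes 5 of the 9 members other than Gpx2 were higher, against 9.92% of all genes, and nothing is read from that count because low values in the butyrate libraries chose the members.

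Whether the effect of butyrate depended on IL-1β was tested with the interaction of both agents. None of the 9 members tested passed (0 of 9 by edgeR, where the lowest adjusted p was 0.687 and 0 members had an unadjusted p under 0.05, and 0 of 9 by DESeq2). Over all genes tested 0.0968% passed. The interaction contains the difference of butyrate and control in which the members were low, so it is not independent of their choice. For that reason nothing is read from the count of members that passed. The effect of butyrate in IL-1β-exposed islets minus that in unexposed islets was 0.02 for Gpx1 on the log2 scale (95% interval -0.15 to 0.19) and -0.02 for Sod1 (-0.21 to 0.17). It was 0.14 for Sod2 (-0.04 to 0.33), 0.20 for Gpx3 (-0.0014 to 0.409) and, as a description, 0.23 for Gpx2 (-0.19 to 0.64). The intervals leave room for differences of these sizes, so that equal effects of butyrate in both settings were not shown. For Gpx1, the sum of the log2 effects of each agent alone was 0.46 and the measured effect of both together was 0.48. For Sod1 these values were -0.38 and -0.40, and for Prdx4 0.27 and 0.29. The widest gap was in Gpx2, at -2.64 for the sum and -2.41 for both together.

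**Figure D4:**
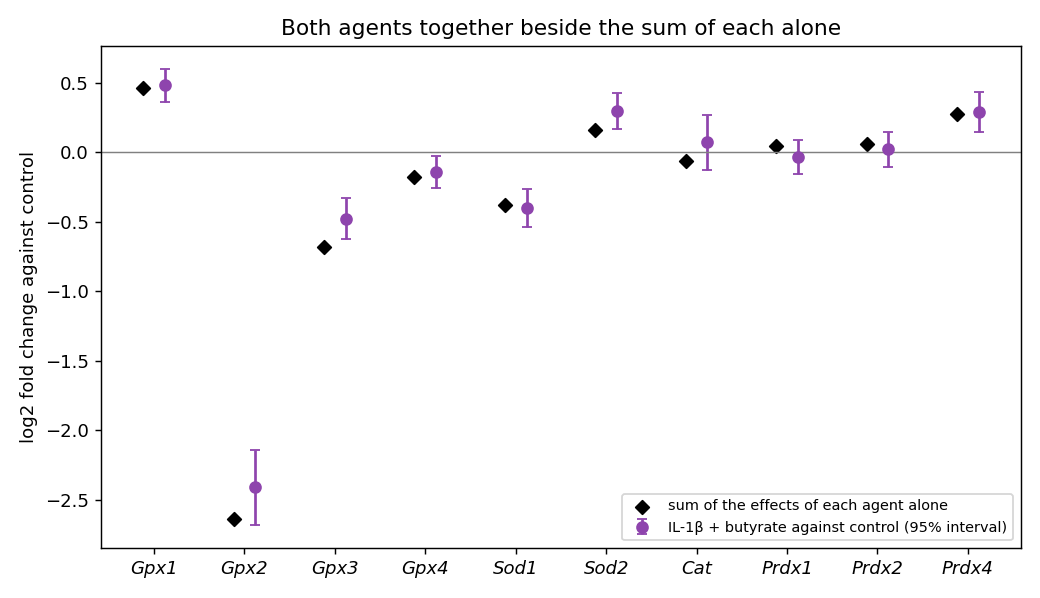
Log2 fold change of both agents together against control (purple, with 95% interval) beside the sum of the log2 effects of IL-1β alone and butyrate alone (black diamonds) for the 10 members. The sum lies within the interval except for Gpx3, at -0.68 for the sum and -0.48 for both together, and Sod2, at 0.16 and 0.30, and the intervals of both differences include 0.

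The mix of enzymes is given as ratios of CPM per kilobase of exon within a library, without a test. Sod2 divided by Sod1 was 0.166, 0.158, 0.174 and 0.182 in control, and 0.210, 0.181, 0.212 and 0.198 with IL-1β. It was 0.222, 0.208, 0.196 and 0.211 with butyrate, and 0.288, 0.299, 0.255 and 0.257 with both agents. The ratio with both agents was higher in every library than in any library of the other conditions. On the same scale per kilobase, the ratio of Gpx2 to Gpx1 was 0.51 ± 0.06 (SD, n = 4) in control and 0.51 ± 0.06 with IL-1β, against 0.069 ± 0.0055 with both agents and 0.059 ± 0.0058 with butyrate. The ratio per kilobase of Gpx3 to Gpx1 was 3.42 to 4.08 in control, 2.643 to 3.002 with butyrate, 1.96 to 2.66 with IL-1β and 1.65 to 2.04 with both agents. In CPM not divided by length, the 10 genes together made up 866 to 938 in control, 907 to 1108 with IL-1β, 756 to 785 with both agents and 633 to 719 with butyrate.

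The other members of the same families gave few calls. There were 9 such genes, of which 8 were tested, and with IL-1β 1 rose and 1 fell, against 11.2% and 6.59% of all genes. Prdx5, found in mitochondria and peroxisomes, rose from 61.7 to 65.0 CPM in control to 69.7 to 85.2 CPM with IL-1β (log2 0.24 ± 0.05 SE, edgeR adjusted p = 0.00108). Prdx6, which uses glutathione, fell from 162 to 164 CPM to 126 to 141 CPM (log2 -0.28 ± 0.04 SE, edgeR adjusted p = 9.22e-06). Both stayed so with both agents, at 0.36 ± 0.05 for Prdx5 and -0.23 ± 0.04 for Prdx6 against control (edgeR adjusted p = 3.13e-06 and 9.23e-05). Prdx3, the mitochondrial peroxiredoxin, had a log2 difference of 0.19 ± 0.06 with IL-1β that did not pass (edgeR adjusted p = 0.0115). Gpx5, Gpx7, Gpx8, Sod3 and Prdx6b had at most 31 reads in a library and none of them passed in any of the comparisons, and Gpx6, with at most 2 reads, was not tested. When butyrate was added to IL-1β, the lowest adjusted p in this family list was that of Gpx7 (log2 -0.86 ± 0.26 SE, edgeR adjusted p = 0.0137).

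Of the genes that feed these enzymes with glutathione, 9 were tested, and IL-1β raised 1 and lowered 3, where 11.2% of all genes rose and 6.59% fell. Gclm, the modifier subunit of the enzyme that starts glutathione synthesis, rose by a log2 of 0.29 ± 0.04 (SE, edgeR adjusted p = 9.71e-06). Slc7a11, the cystine carrier, was at 32.6, 29.2, 30.1 and 32.6 CPM in control and at 26.8, 18.8, 21.3 and 19.4 CPM with IL-1β (log2 -0.54 ± 0.09 SE, edgeR adjusted p = 6.53e-05). With both agents Slc7a11 was back at 28.2 to 31.7 CPM, a rise over IL-1β of 0.49 ± 0.09 (edgeR adjusted p = 0.000202). Gsr, glutathione reductase, fell by 0.20 ± 0.05 on the log2 scale when butyrate was added to IL-1β (edgeR adjusted p = 0.00422), in a list where 4 rose and 2 fell, against 8.41% and 11.1% of all genes.

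In the thioredoxin and glutaredoxin system 4 of 14 genes rose with IL-1β (11.2% of all genes) and the other 10 did not pass. Txnip, which binds and inhibits thioredoxin, rose from 259 to 360 CPM to 457 to 570 CPM (log2 0.67 ± 0.12 SE, edgeR adjusted p = 0.001). When butyrate was added to IL-1β 3 of the 14 fell (11.1% of all genes), among them glutaredoxin Glrx, at 59.8 to 77.3 CPM with IL-1β and 42.8 to 52.4 CPM with both agents (log2 -0.53 ± 0.08 SE, edgeR adjusted p = 4.52e-05).

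Genes of selenocysteine supply, on which Gpx1 to Gpx4 depend, gave 2 higher and 1 lower of 12 with IL-1β, near the shares of 11.2% and 6.59% over all genes. Selenop, the selenium carrier of plasma, was at 230, 295, 303 and 310 CPM in control and at 414, 507, 515 and 510 CPM with IL-1β (log2 0.78 ± 0.12 SE, edgeR adjusted p = 0.000173). Sepsecs, which makes selenocysteine on its transfer RNA, fell by 0.22 ± 0.05 (edgeR adjusted p = 0.00105). When butyrate was added to IL-1β 2 of the 12 fell (11.1% of all genes), with Lrp8, a receptor for Selenop, at -0.34 ± 0.06 (edgeR adjusted p = 0.000208). Of 12 other selenoprotein genes 1 rose with IL-1β (11.2% of all genes), Selenot (0.17 ± 0.05, edgeR adjusted p = 0.00854), and 2 fell (6.59% of all genes), with Selenoh at -0.57 ± 0.10 (edgeR adjusted p = 0.000128). Selenow was the 1 that rose when butyrate was added, against 8.41% of all genes (0.43 ± 0.08, edgeR adjusted p = 0.000333).

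Of 10 genes for metal supply and import of these enzymes, 1 rose and 1 fell with IL-1β, near the shares of 11.2% and 6.59% over all genes. The copper chaperone Atox1 rose by 0.48 ± 0.10 on the log2 scale (SE, edgeR adjusted p = 0.000978). The metal carrier Slc39a14 fell by 0.20 ± 0.05 with IL-1β (edgeR adjusted p = 0.00509) and rose by 0.21 ± 0.05 when butyrate was added (edgeR adjusted p = 0.00346).

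Among genes that produce superoxide, hydrogen peroxide or nitric oxide, 7 of 14 rose with IL-1β and 1 fell, against 11.2% and 6.59% of all genes. Among the 7 were Cybb, Cyba and Ncf4, which encode subunits of the NADPH oxidase of phagocytes and are named here after their values were seen. They rose in the libraries in which 8 of the 9 macrophage markers rose, and the part of macrophages in this was not tested. Nos2, the inducible nitric oxide synthase, had 3 reads in the 4 control libraries together and 162 with IL-1β, a ratio of 55.8 with a 95% interval of 18.7 to 273 that covers counting error only. With both agents Nos2 had 19 reads, 9.01-fold below IL-1β (95% interval of the ratio 5.59 to 15.3). The gene that fell was Ero1b, the oxidoreductase of the endoplasmic reticulum in beta cells, from 1858 to 1965 CPM to 911 to 1251 CPM (log2 -0.78 ± 0.10 SE, edgeR adjusted p = 6.92e-06). When butyrate was added to IL-1β 4 of the 14 fell (11.1% of all genes) and the other 10 did not pass.

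The list of NRF2 regulators and targets gave 5 higher of 18 with IL-1β (11.2% of all genes). When butyrate was added to IL-1β 1 was higher and 4 were lower, against 8.41% and 11.1% of all genes. Malic enzyme Me1, a source of NADPH, was at 24.0 to 27.5 CPM in control, 40.5 to 46.4 with IL-1β, 27.3 to 32.1 with both agents and 15.9 to 19.6 with butyrate. Its log2 fold change was 0.72 ± 0.07 (SE) with IL-1β (edgeR adjusted p = 2.49e-09) and -0.52 ± 0.07 when butyrate was added (edgeR adjusted p = 7.89e-07). The glutathione transferase Gsta4 was at 0.58 to 1.14 CPM with IL-1β and 1.80 to 2.89 CPM with both agents (log2 1.53 ± 0.24 SE, edgeR adjusted p = 1.42e-05).

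The genes whose log2 CPM followed Gpx2 most closely over the 16 libraries, out of 12692 genes searched, were Dynll1, Akr1b3, Glyr1, Tmem71 and Ufc1, with Pearson's r between 0.977 and 0.987. None of them moved as far: their log2 differences between butyrate and control ran from -0.91 for Ufc1 to -0.18 for Glyr1. For Sod2 the closest genes were M6pr, Nap1l2, Spidr, Txndc12 and Clpx, with r between 0.9415 and 0.9747. Their log2 differences between IL-1β and control were between 0.15 and 0.49, and those between both agents and IL-1β between -0.06 and 0.05. These values describe the 16 libraries, which fall into 4 conditions, and carry no test.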

How the data were processed

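Islet RNA was sequenced single-end (NEBNext Ultra II, HiSeq) in 16 libraries. Per the labels and methods, the authors mapped reads to mm10 (GRCm38.p5) with STAR 2.5.3a, after bcl2fastq 2.19.1 and checks in FastQC 0.11.7 and MultiQC 1.7. They deposited raw counts per Ensembl gene, whole numbers without normalization. The counting tool, annotation release and strand setting are not given in the sources used here, and 52489 of 52636 identifiers were found in GENCODE M21.

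Libraries held 18635943 to 25955943 counts (median 22184715). Genes were filtered with filterByExpr, scaled by TMM and tested with edgeR 4.0.16 (R 4.3.3) by a robust quasi-likelihood fit of all 16 libraries, one coefficient per condition. Tested were IL-1β against control, both agents against IL-1β and against control, and the interaction, for the 9 members other than Gpx2. Calls use a Benjamini-Hochberg adjusted p under 0.01 over 18587 genes. Intervals and floors for reads cover counting error only. Two-sided tests were used, and p-values measure the spread between independent experiments. Alternatives were DESeq2 1.42.0, RLE, upper-quartile or plain library size scaling, no filter, fits of the compared groups only, a replicate block, leaving out each library, and coding length. Leaving out Ins1 and Ins2 was chosen after seeing the data. The scripts were tested on simulated data.

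Same-numbered libraries deviated together: the correlation of their deviations exceeded 0.1 in 22 of 24 pairs (0.0373 to 0.484) and in all 4 pairs for control with each other condition and for IL-1β with both agents. The pairing comes from these data, since the labels give 4 independent experiments without saying that a number marks one. No 2 libraries of a condition agreed within sampling noise (chi-square per gene 1.72 to 13.5).

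The members, gene lists and marker lists were chosen with earlier results of these data known. Named were all members, the other family genes, the largest called rise and fall in each pathway list with IL-1β and with butyrate added to it, Ins1, Ins2, Gcg and Sst, and the 5 genes most correlated with Gpx2 and Sod2. Protein sequences were not used here. Figures were drawn with matplotlib 3.10.9.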

Additional observations from a re-analysis of the deposited data

Results flagged for a closer look

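In 2 of the 40 groups of 4 libraries (10 members in 4 conditions) 1 library stood apart by Dixon's criterion, a number that chance alone would give at about 1 group in 20. Sod1 in butyrate replicate 4 was at 116.8 CPM, below the other 3 libraries at 129 to 131 CPM, and the gap was 0.891 of the range. Prdx4 in control replicate 1 was at 16.43 CPM, below the others at 18.2 to 18.6 CPM, and the gap was 0.831 of the range. Of the 36 listed genes examined for an effect of butyrate that differed by the presence of IL-1β, Nos2 passed the interaction test (edgeR log2 difference -5.529, adjusted p = 0.0044). The control libraries held 0 to 2 reads of Nos2, so the size of this value depends on the prior count and is no bound. It also rests on the libraries of butyrate alone, which held 1 to 10 reads each. Of their 17 reads, 10 came from replicate 1.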

How the results depend on the processing

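In the 4 tested comparisons, 865 of 891 values of the 9 members under the 25 alternatives kept their side of the threshold, 16 lost a call and 10 gained one. The sign changed in 26 values, 0 of them called in either fit: among these were Sod1 and Gpx4 with IL-1β, Gpx1 and Sod2 for both agents against IL-1β, and Prdx1 and Prdx2 for both against control. The counts that follow cover all 10 members, Gpx2 and both described comparisons included. With upper-quartile size factors 4 of the 10 members were called in butyrate against control (7 with TMM), and leaving out 1 library gave 4 to 8, with 4 without control replicate 2 or 3 or without butyrate replicate 3 or 4. Leaving out 1 library gave 5 to 8 members for IL-1β against control, 5 to 8 for both agents against IL-1β, 6 for both agents against control, 5 to 6 for both agents against butyrate and 0 for the interaction. Fitting only the groups compared took the adjusted p of Prdx1 with IL-1β to 0.0115 and of Gpx3 and Prdx4 for both agents against IL-1β to 0.0101 and 0.0246. Prdx4 there was at 0.0345 with upper-quartile and 0.0116 with plain library size scaling. By coding length 4 of 10 members kept their place in the order of levels in control, 2 with IL-1β, 3 with both agents and 0 with butyrate. With the replicate block the members called were 8, 8, 8, 6, 7 and 0 in the comparisons IL-1β against control, both against IL-1β, butyrate against control, both against control, both against butyrate, and the interaction. Of the described comparisons, the block moved the count for butyrate against control from 7 to 8 and that for both agents against butyrate from 6 to 7. In the latter 1 of the 4 pairs correlated under 0.1. In the tested comparisons the block changed no call of the 9 members beyond those of Gpx3 and Gpx4 given in the report. Over all genes the interaction gave 18 calls, 52 by DESeq2, 132 with the block, 95 without the filter, 39 at an adjusted p of 0.05 and 11 without butyrate replicate 1. Both agents against IL-1β gave 3629 calls and 5595 at 0.05. The causes of these changes were not tested. Leaving out Ins1 and Ins2 changed no member count. Depth limits the values of the low family genes and of Nos2 most. The members had at least 110 reads in each library, and the part of counting error in their spread was not tested.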

Other observations

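Of the islet hormone genes, both insulin genes fell with IL-1β. Ins2 was at 138961 to 156660 CPM in control and 73648 to 99883 with IL-1β (log2 -0.72 ± 0.08 SE, edgeR adjusted p = 2.27e-07), and butyrate added to IL-1β left it at 75756 to 99428 CPM (log2 0.01, adjusted p = 0.965). Ins1 fell with IL-1β (log2 -0.26 ± 0.07, edgeR adjusted p = 0.00506) and again when butyrate was added (-0.40 ± 0.07, adjusted p = 6.28e-05). Sst, the delta cell hormone, rose by 0.61 ± 0.08 on the log2 scale when butyrate was added to IL-1β (edgeR adjusted p = 1.01e-05). Of the 4 delta cell markers, Sst was the 1 called higher and the other 3 did not pass. The median log2 fold change of the 4 was 0.18 and the lowest was -0.31. Gcg, the alpha cell hormone, rose by 0.25 ± 0.07 when butyrate was added to IL-1β (edgeR adjusted p = 0.00869). Of the 5 alpha cell markers, Gcg was the 1 called higher in this comparison and 2 were called lower. Their median log2 fold change was -0.31. Over all genes tested 8.41% were called higher and 11.1% lower.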
